A study of Rattus norvegicus with 49 samples.

Results

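The genes described are 10 targets of the transcription factor p53, Cdkn1a, Ccng1, Mdm2, Phlda3, Bax, Bbc3, Aen, Tp53inp1, Sesn2 and Gdf15, measured in rat thyroid after injection of 131I. A probe of the array was taken as a member when its RefSeq accession mapped to one of these symbols, which gave 13 probes for the 10 genes, of 30367 probes and 15154 gene symbols in all. Measured values did not enter this mapping, but the genes were chosen with earlier results of these data known. Cdkn1a, Mdm2 and Aen have 2 probes each, and the probe with the higher mean signal stands for the gene unless the other is named. All 13 probes passed the filter on dim signals, and each was well above background on 47 to 49 of the 49 arrays.

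Thyroid of single male Sprague Dawley rats was hybridised to one-colour Agilent arrays, 1 rat per array, in 13 groups. Of these, 6 had received 131I intravenously at 5 weeks of age and are called young here. They were given 50 kBq and killed after 3 or 6 months, or 0.5, 5, 50 or 500 kBq and killed after 9 months. The adult groups had received 50 kBq at 17 weeks of age and were killed after 3, 6 or 9 months. The remaining groups were untreated controls of 4, 7, 10 and 13 months of age, and each 131I group was compared with the controls of its age at death. Controls of 7 months served both young rats at 6 months and adult rats at 3 months, and controls of 10 months served the young groups at 9 months and adult rats at 6 months, so these comparisons are not independent. Groups held 4 arrays, except that the young 5 kBq group, the 7 month controls and the 13 month controls held 3 each. The label of 1 rat per array makes replicates separate animals. The controls are labelled as untreated, and only males were studied.

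131I is a beta-emitting isotope of iodine that thyrocytes, the hormone-producing cells of the follicles, take up and store as they do stable iodine. Breaks in DNA stabilise p53, which then binds short DNA elements near its target genes and raises their transcription. The targets fall into several roles. Cdkn1a (p21) blocks cyclin-dependent kinases and halts the cell cycle, and Ccng1 encodes cyclin G1, which acts in the feedback on p53. Mdm2 is the ubiquitin ligase that degrades p53, and Phlda3 restrains the survival kinase Akt. Bax and Bbc3 (Puma) open the mitochondrial route to apoptosis, Aen is a nuclease of apoptotic cells, and Tp53inp1 promotes cell death and autophagy. Sesn2 restrains mTORC1 signalling under stress, and Gdf15 is a secreted cytokine of stressed cells. Sesn2 and Gdf15 also respond to Atf4, and several of the genes are expressed without DNA damage.

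Promoter windows from 250 bases before to 50 bases after a start site (RefSeq, GRCr8) were given for 7 of the 10 genes, in 8 windows. The start site is the first base of the annotated gene in 4 windows and lies inside the gene in those of Cdkn1a, Mdm2 and Aen and in the second of Gdf15. They were searched on both strands for the p53 half-site, the decamer of which p53 binds a pair. The half-site was found in 3 of the 8 windows, those of Cdkn1a, Ccng1 and Aen, and in 2671 of 33469 promoter windows of the rat genome (7.98%). The 30 bases around each are shown because they are the elements through which p53 could bind these windows, with the half-site in capitals. No half-site was found in the windows of Mdm2, Phlda3, Sesn2 and Gdf15, which says only that these letters were absent from that stretch. A match is a description of the sequence and not a measured binding site. Windows of Bax, Bbc3 and Tp53inp1 were not analysed here.
Cdkn1a, chr20:7150721-7150750, plus strand, half-site beginning 201 bases before the start site of the window and 89 bases before the annotated gene: tggctttcagGAACATGTCTtgacttgttc
Ccng1, chr10:25685089-25685118, minus strand, half-site beginning 232 bases before the start site of the window, here also the start of the annotated gene: agacctgcccGGGCAAGCCTtggcattgaa
Aen, chr1:142224493-142224522, plus strand, half-site beginning 30 bases before the start site of the window and inside the annotated gene: agccgaagccGGGCATGTCCgggcaagcaa

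In the same build, Cdkn1a lies at chr20:7150820-7161373, Ccng1 at chr10:25678503-25684876, Mdm2 at chr7:55176558-55201757 and Phlda3 at chr13:49745003-49748088. Bax (chr1:105076472-105081906), Bbc3 (chr1:86141450-86150666) and Aen (chr1:142224499-142233902) share chromosome 1. Tp53inp1 (chr5:29051267-29069486) and Sesn2 (chr5:149986304-150005255) share chromosome 5, and Gdf15 lies at chr16:18838436-18842022.

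Signals are given as log2 of the background-subtracted intensity minus the 75th percentile of the array, so that 0 marks a probe at that percentile, and differences between groups are log2 fold changes. Levels were not compared between genes. Between 69.2% and 82.5% of the spots were well above background on 48 arrays, whose 75th percentile signal lay between 783 and 4172. The young 50 kBq, 3 month replicate 2 had 43.1% and a 75th percentile of 61.0. No spot was saturated. Thyroglobulin (Tg), the defining protein of the thyroid follicle, lay at 10.9 on that array, between 6.41 and 7.91 on 46 arrays, at 0.14 on the young 50 kBq, 3 month replicate 3 and at -0.69 on the 7 month control replicate 2. Muscle creatine kinase (Ckm) lay at 8.91 and 8.15 on those 2 arrays, against -1.65 to 7.70 on the 46 arrays. These 2 arrays therefore go against the thyroid label. Fold changes of the 10 genes in the comparisons of 2 groups that use the 3 arrays are given for all 49 arrays and, in the text or in the plot of fold changes, without them, as a fit of 46 arrays chosen after the data were seen. Each sample was whole tissue, so fewer cells of a type and less RNA per cell cannot be told apart.

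**Figure D1:**
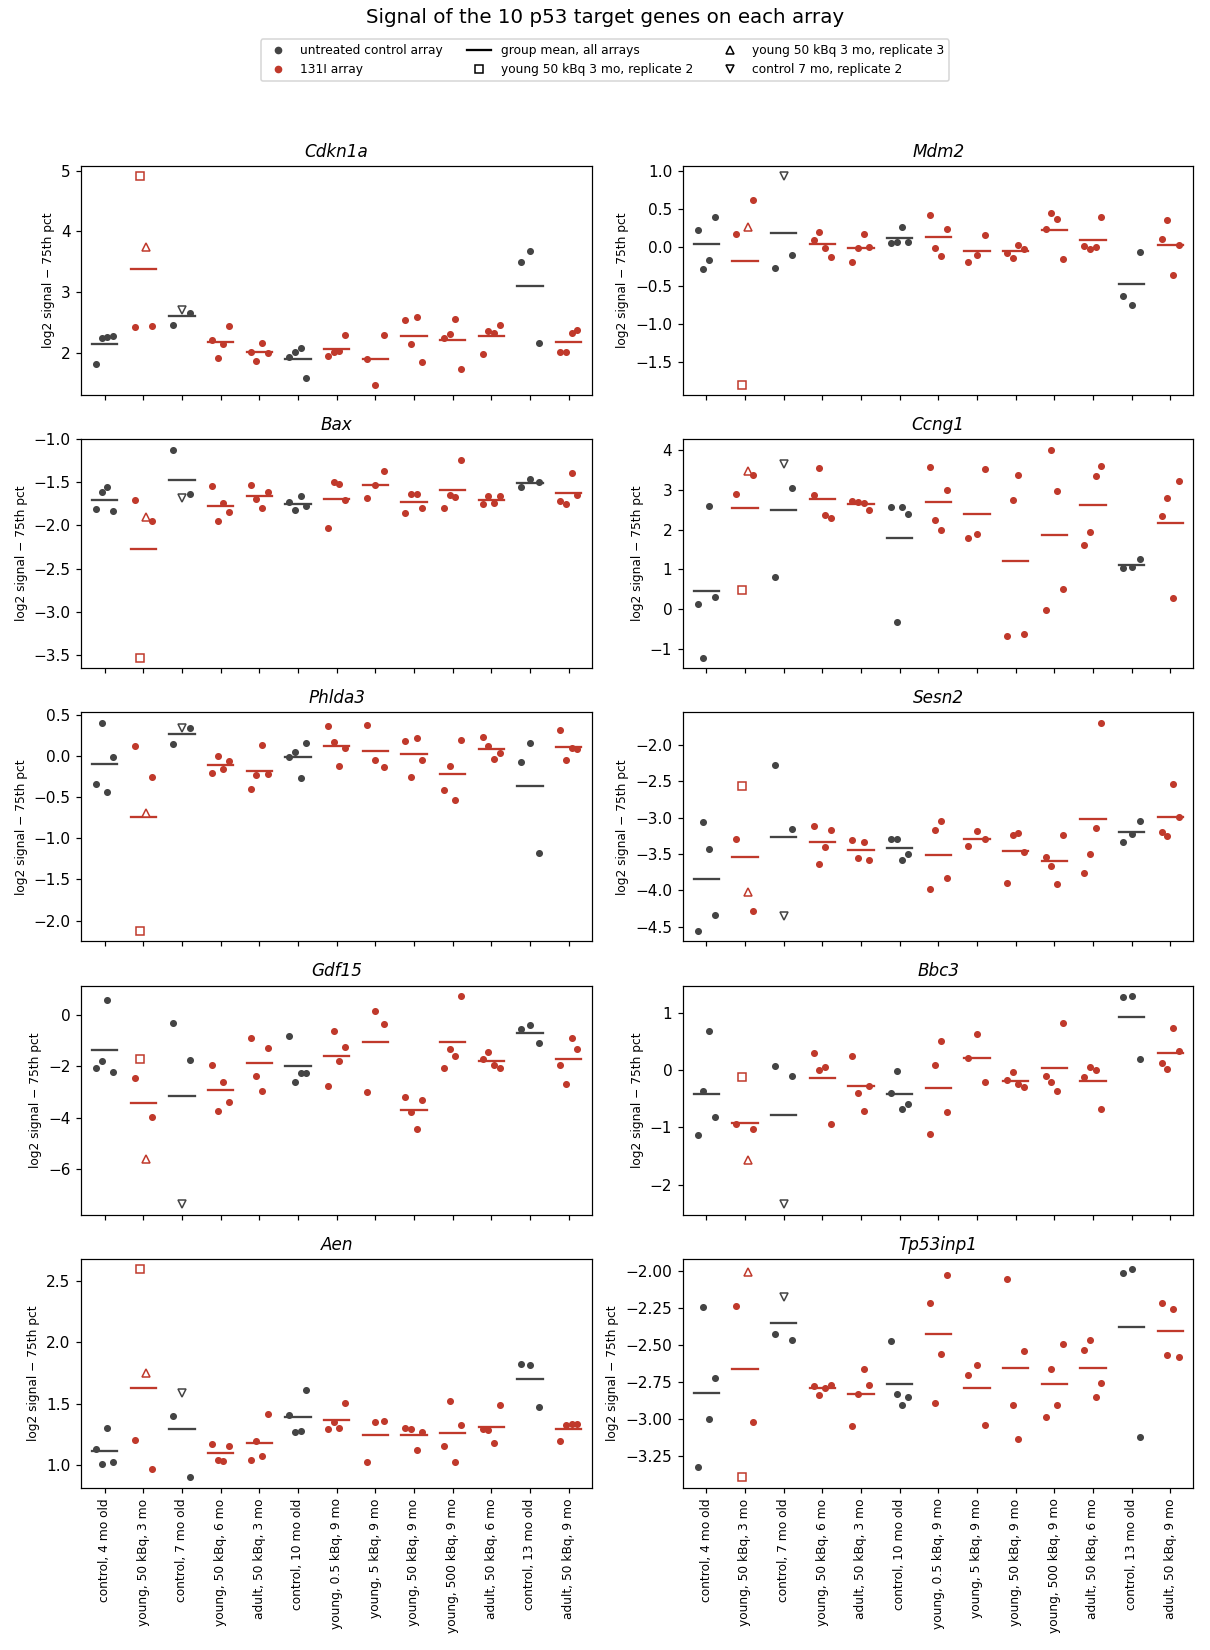
Log2 signal minus the 75th percentile of the array (y axis, one scale per gene) of the 10 p53 target genes on each of the 49 arrays, by group (x axis), with horizontal lines at group means and open symbols for the 3 arrays named above. The Cdkn1a arrays far above the rest are 2 of the open symbols, in young rats 3 months after 50 kBq, and 2 of the 3 controls of 13 months.

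With all 49 arrays, no p53 target gene was called in any of the 9 comparisons of 131I with controls, at a limma adjusted p below 0.01 over all probes and a change over 1.5-fold. The median log2 fold change of the list lay between -0.18, in adult rats 3 months after 50 kBq, and 0.15, in adult rats 6 months after 50 kBq, where the medians of all 25312 probes tested were -0.11 and 0.06. Its widest gap to all probes was in young rats 3 months after 50 kBq, at -0.04 against 0.30, and in the fit of 46 arrays these were 0.04 and 0.02. Without the 3 arrays, or without the 7 month control replicate 2 alone, the median of the list was -0.33 in adult rats after 3 months and -0.35 in young rats after 6 months (-0.17 with all arrays), against -0.11 and -0.09 over all probes in the fit of 46 arrays. At 9 months in young rats, rising activity from 0.5 to 500 kBq gave medians of the 10 genes of 0.13, 0.10, -0.01 and 0.09. Few transcripts of any kind were called in the same comparisons. The share of probes called was 0.0119% in young rats 3 months after 50 kBq, and 0% in young rats after 6 months. Among the young groups at 9 months, the 0.5 kBq group had 0% of probes called, the 5 kBq group 0.0119%, the 50 kBq group 0.0119% and the 500 kBq group 0%. In adult rats it was 0% after 3 months, 0% after 6 months and 0.514% after 9 months. A count of 0 among 10 genes is near this background. At an unadjusted p below 0.05, 6 of the 10 genes passed in young rats 3 months after 50 kBq, where 37.9% of all probes did, and 1 passed in adult rats after 9 months, where 21.9% did. None passed in the other 7 comparisons, where 0.794% to 6.54% of all probes did. With 46 arrays in the fit, 2 of the 10 passed in young rats after 3 months, where 10.2% of all probes did, 2 in young rats after 6 months (10.5%), 1 in adult rats after 3 months (8.18%) and 4 in adult rats after 9 months (34.8%).

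**Figure D2:**
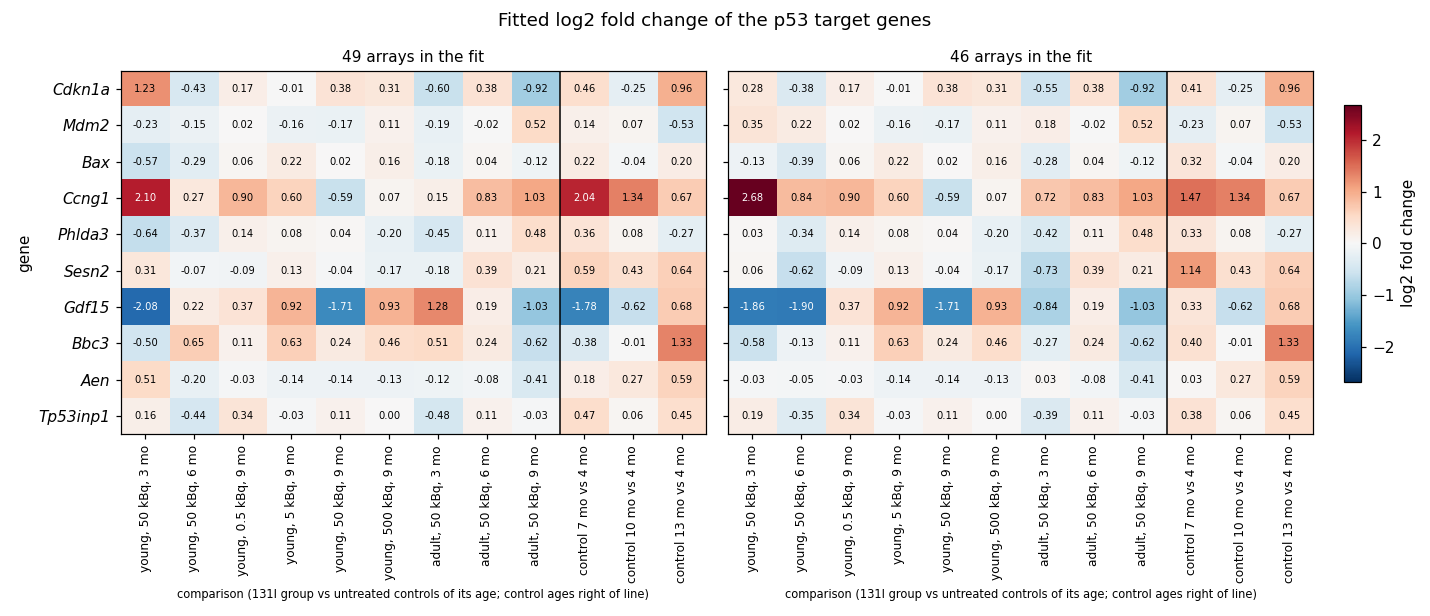
Fitted log2 fold change (colour and printed value) of each p53 target gene (rows) in the 9 comparisons of 131I with controls and, right of the line, the 3 comparisons of control ages (columns), in the fit of all 49 arrays and in the fit of 46. Cdkn1a goes from 1.23 to 0.28 in young rats 3 months after 50 kBq when the 3 arrays are left out, and remains at -0.92 in adult rats after 9 months.

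Cdkn1a had the smallest p of the genes in young rats 3 months after 50 kBq. Its signal was 2.42, 4.91, 3.74 and 2.44 on the 131I arrays and 1.83, 2.25, 2.27 and 2.28 on the controls of 4 months. The 131I arrays all lay above the controls, replicates 1 and 4 only just, and the 2 highest values belong to replicate 2, of low signal, and replicate 3, of low thyroglobulin. The log2 fold change was 1.23 (SE 0.32, limma adjusted p = 0.0224), which did not pass 0.01, and an exact two-sided permutation test gave p = 0.0286, the smallest it can give at this group size. Without replicate 2 the change was 0.72 (limma adjusted p = 0.162), and in the fit of 46 arrays it was 0.28 (SE 0.27, limma adjusted p = 0.672). Within the 2 scan dates that hold both groups the difference was 1.06 and 1.39, and within the 2 such slides 1.92 and 0.15. The second Cdkn1a probe went the other way at -0.48 (SE 0.41), with overlapping groups. Groups did not overlap for 1 of the 10 genes here, against 5.4% of all probes.

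In the same comparison, Ccng1 lay at 2.89, 0.49, 3.46 and 3.37 in 131I rats and at 0.15, -1.21, 2.58 and 0.30 in controls. Its log2 fold change was 2.10 (SE 0.90, limma adjusted p = 0.0865) with all arrays and 2.68 (SE 1.07, limma adjusted p = 0.475) in the fit of 46, where only replicates 1 and 4 remained on the 131I side. Gdf15 lay at -2.47, -1.73, -5.61 and -3.98 against -2.08, -1.78, 0.60 and -2.20, with a log2 fold change of -2.08 (SE 0.93, limma adjusted p = 0.0970) and of -1.86 without the 3 arrays. Both genes kept the sign and the size of the difference without the arrays that stand apart, and neither passed the test in either fit. Their groups overlapped with all 49 arrays.

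The remaining genes with an unadjusted p below 0.05 in that comparison followed replicate 2. Bax was at -3.53 on it and at -1.71, -1.91 and -1.95 on the other 131I arrays, against -1.81, -1.62, -1.55 and -1.83 in controls. Phlda3 was at -2.12 on it and at 0.12, -0.70 and -0.26 on the others, against -0.34, 0.40, -0.44 and -0.01. Aen was at 2.59 on it and at 1.21, 1.75 and 0.97 on the others, against 1.13, 1.01, 1.30 and 1.02. The log2 fold changes were -0.57 for Bax, -0.64 for Phlda3 and 0.51 for Aen (limma adjusted p = 0.0538, 0.0885 and 0.0564). In the fit of 46 arrays they were -0.13, 0.028 and -0.030. The second Mdm2 probe behaved likewise, at 1.19 (limma adjusted p = 0.0221) in the full fit and 0.27 without the 3 arrays. The first Mdm2 probe gave -0.23 and then 0.35, and its signal on replicate 2 was -1.79, against 0.17 to 0.62 on the other 131I arrays.

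**Figure D3:**
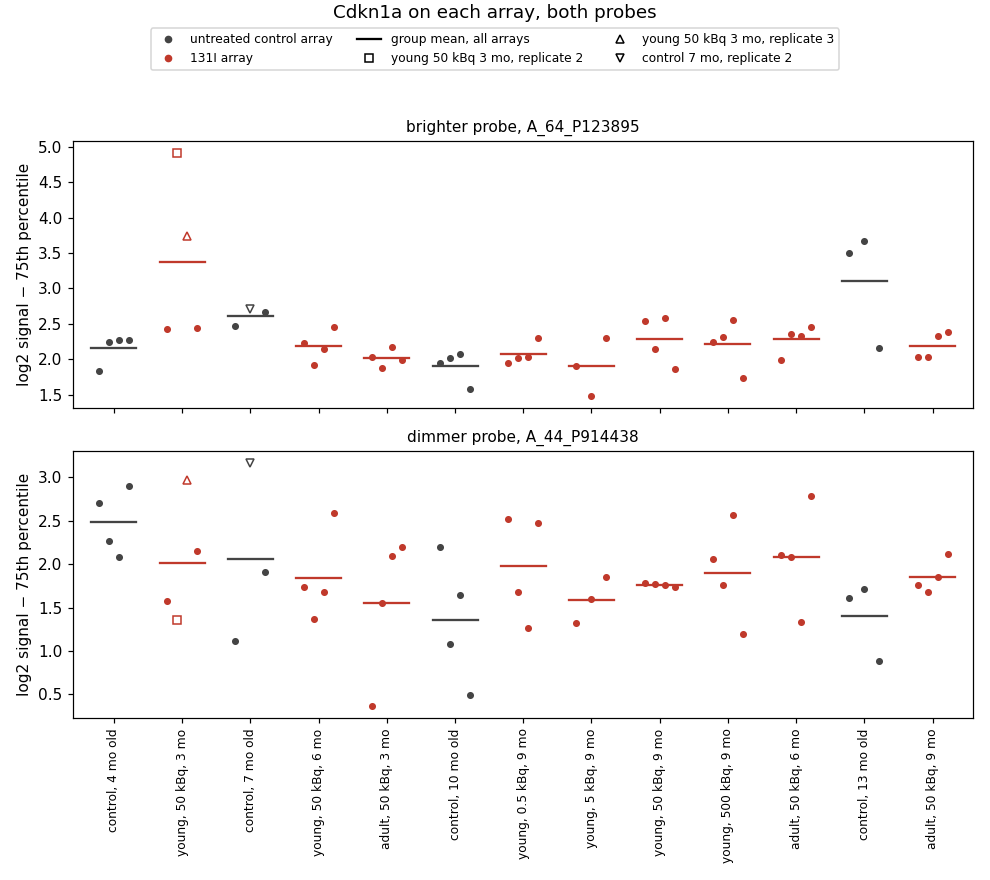
Log2 signal minus the 75th percentile of the array (y axes) of the 2 Cdkn1a probes on each array, by group (x axis), with lines at group means. The 13 month controls are the second highest group on the upper probe, at a mean of 3.11, and the second lowest on the lower probe, at 1.40.

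At 6 months after 50 kBq in young rats, 3 of the 10 genes had groups that did not overlap, all with lower signal after 131I, against 7.82% of all probes. Cdkn1a was at 2.22, 1.92, 2.15 and 2.45 in 131I rats and at 2.47, 2.71 and 2.67 in controls of 7 months, a log2 fold change of -0.43 (SE 0.35, limma adjusted p = 0.883). The gap between the closest arrays was small, and leaving out the 7 month control replicate 2, which lacked thyroid markers, gave -0.38. Phlda3 was at -0.20, 0.00, -0.16 and -0.07 against 0.14, 0.33 and 0.33, a log2 fold change of -0.37 (SE 0.30, limma adjusted p = 0.881). Tp53inp1 was at -2.78, -2.84, -2.79 and -2.77 against -2.42, -2.17 and -2.46, a log2 fold change of -0.44 (SE 0.28, limma adjusted p = 0.826). The 131I arrays of Tp53inp1 were the tightest of any group for this gene, with an SD of 0.03. Without the 3 arrays Phlda3 was at -0.34 and Tp53inp1 at -0.35. Gdf15 and Bbc3 changed sign between the fits, from 0.22 to -1.90 and from 0.65 to -0.13. The second Aen probe differed by -0.47 (unadjusted p = 0.00699, limma adjusted p = 0.554), against -0.20 for the first.

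Adult rats 3 months after 50 kBq were set against the same controls of 7 months, and the same 3 genes separated from them, against 7.64% of all probes. Cdkn1a was at 2.03, 1.88, 2.17 and 2.00, a log2 fold change of -0.60 (SE 0.35, limma adjusted p = 0.997) and of -0.61 within the 1 scan date that holds both groups. Phlda3 was at -0.40, -0.23, 0.13 and -0.22, with a fold change of -0.45 (SE 0.30), and Tp53inp1 at -3.05, -2.83, -2.66 and -2.77, with a fold change of -0.48 (SE 0.28), both at a limma adjusted p of 0.997. Without the 3 arrays these genes were at -0.55, -0.42 and -0.39, and Gdf15 and Bbc3 again changed sign, from 1.28 to -0.84 and from 0.51 to -0.27. Since both comparisons use the same 3 control arrays, their shared direction is no independent repeat. Cdkn1a, Phlda3 and Tp53inp1 all had a group mean in the controls of 7 months that was exceeded in at most 2 other groups. The same controls exceeded the 4 month controls in Cdkn1a by 0.46 (SE 0.35, limma adjusted p = 0.902) with no overlap, against 6.16% of all probes.

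At 9 months in young rats, activities from 0.5 to 500 kBq were compared, and Cdkn1a overlapped with controls at each. It differed from the 10 month controls by 0.17, -0.01, 0.38 and 0.31 in order of activity, with SEs of 0.32 to 0.35. The 10 month control arrays lay at 1.95, 2.02, 2.08 and 1.59. The 131I arrays lay at 1.95, 2.02, 2.03 and 2.30 for 0.5 kBq and at 1.91, 1.49 and 2.30 for 5 kBq. They lay at 2.55, 2.14, 2.59 and 1.86 for 50 kBq and at 2.24, 2.31, 2.56 and 1.74 for 500 kBq. The second Cdkn1a probe was higher than controls at all 4 activities, by 0.63, 0.23, 0.41 and 0.54, with SEs of 0.41 to 0.44 and overlapping groups throughout.

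Across these activities the slope per 10-fold activity, fitted over the 15 exposed arrays, was called for none of the 10 genes, and for 0% of the 23122 probes tested. At an unadjusted p below 0.05 it passed for none of the 10 genes and for 2.58% of all probes. Activity was partly confounded with scan date, as most 0.5 kBq arrays were of the first date and most 500 kBq arrays of the second. The 500 kBq arrays also shared no slide with the 10 month controls. The slopes ranged from -0.36 (SE 0.32) for Ccng1 to 0.08 (SE 0.07) for Cdkn1a. The slopes with the smallest SEs were those of Aen, at -0.03 (SE 0.04), Bax, at 0.01 (SE 0.05), and Mdm2, at 0.02 (SE 0.05). Phlda3 had the smallest p of the list at 0.0804, with a slope of -0.11 (SE 0.06, limma adjusted p = 1.00).

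Gdf15 stood out at 1 of the 4 activities. At 50 kBq its signal was -3.19, -3.80, -4.46 and -3.31, below all 10 month controls at -0.81, -2.61, -2.24 and -2.26. The log2 fold change was -1.71 (SE 0.93, limma adjusted p = 1.00), and the exact two-sided permutation test gave p = 0.0286, its smallest possible value. Within scan dates 1 and 3 the difference was -1.36 and -1.88. The differences at the other activities were 0.37 (0.5 kBq), 0.92 (5 kBq) and 0.93 (500 kBq), so the 50 kBq group had no neighbour in activity of the same sign. Mdm2 also did not overlap at 50 kBq, with -0.08, -0.14, 0.03 and -0.02 against 0.05, 0.08, 0.27 and 0.07 and a log2 fold change of only -0.17 (SE 0.29). These 2 of 10 genes stand against 3.98% of all probes. At 0.5, 5 and 500 kBq none of the genes had groups that did not overlap, against 1.05%, 15.3% and 2.92% of all probes.

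In adult rats 6 months after 50 kBq, against the same 10 month controls, the genes lay between -0.08 for Aen and 0.83 for Ccng1, and none had groups that did not overlap, against 4.07% of all probes. Cdkn1a differed by 0.38 (SE 0.32). Sesn2 lay at -1.69 on replicate 4 and at -3.75, -3.50 and -3.15 on the others, which made the widest spread of Sesn2 among the groups without an array that stands apart.

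The adult rats 9 months after 50 kBq had the most calls among all transcripts of the 9 comparisons of 131I with controls. Cdkn1a was at 2.03, 2.03, 2.33 and 2.38 after 131I and at 3.50, 3.67 and 2.16 in the controls of 13 months. Control replicates 1 and 2 were far above every 131I array, and replicate 3 lay among them. The log2 fold change was -0.92 (SE 0.35, limma adjusted p = 0.107), and the exact two-sided permutation p was 0.0857. In the fit of 46 arrays, which kept all 7 arrays of this comparison and had a smaller estimate of the spread, the same difference had an SE of 0.24 and a limma adjusted p of 0.00593 and was called, the only gene of the 10, where 8.95% of all probes were called. Leaving out 1 control array moved the change from -1.40 without replicate 3 to -0.64 without replicate 2, and the difference was -0.65 within the first scan date, the only one that holds both groups. The second Cdkn1a probe gave 0.45 (SE 0.44, limma adjusted p = 0.610), in the opposite direction.

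Aen was at 1.20, 1.32, 1.33 and 1.33 in these adult rats and at 1.82, 1.82 and 1.47 in controls, with no overlap, a log2 fold change of -0.41 (SE 0.21, limma adjusted p = 0.249) and, in the fit of 46 arrays, a limma adjusted p of 0.0208. It was the only gene of the 10 without overlap, against 26.1% of all probes. The second Aen probe differed little, at means of -3.07 after 131I and -3.03 in controls. Against the first Aen probe, Mdm2 went the other way at 0.52, with Ccng1 at 1.03, Gdf15 at -1.03 and Bbc3 at -0.62, none below an unadjusted p of 0.05. The second Mdm2 probe was slightly lower after 131I, at means of -2.84 against -2.74. Skeletal muscle markers, 13 genes, were higher on most of these 131I arrays than on the controls, but the lowest 131I array lay far below every control. Their mean level, each gene relative to its own median over all arrays, lay from -3.94 to -2.73 on the 13 month controls. On the 131I arrays it lay at -0.05, 0.17, -8.91 and 0.23. The 14 thyrocyte markers lay from 0.75 to 0.98 on the controls and from -0.18 to 0.34 on the 131I arrays. Their part in the result was not tested.

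Age of the untreated controls was the comparison with the largest shift of the list. Between 4 and 13 months the median log2 fold change of the 10 genes was 0.62, against 0.19 over all probes, and 8 of the 10 had a higher mean at 13 months. None of the 10 was called, where 5.14% of all probes were, and 3 passed an unadjusted p below 0.05, where 34.0% of all probes did. Bbc3 was at 1.27, 1.29 and 0.20 at 13 months and at -1.14, -0.37, 0.68 and -0.83 at 4 months, a log2 fold change of 1.33 (SE 0.44, limma adjusted p = 0.0322). Cdkn1a was at 3.50, 3.67 and 2.16 against 1.83, 2.25, 2.27 and 2.28, a log2 fold change of 0.96 (SE 0.35, limma adjusted p = 0.0479). Aen was at 1.82, 1.82 and 1.47 against 1.13, 1.01, 1.30 and 1.02, a log2 fold change of 0.59 (SE 0.21, limma adjusted p = 0.0439). For Bbc3 and Cdkn1a, replicate 3 of the 13 month controls lay inside the range of the 4 month controls. Aen alone had no overlap, against 34.3% of all probes.

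These 3 genes were called in the fit of 46 arrays, at limma adjusted p of 0.00463 for Bbc3, 0.00226 for Cdkn1a and 0.000731 for Aen, with the same differences, where 21.9% of all probes were called. Within the first scan date, Cdkn1a differed by 0.79, Bbc3 by 1.49 and Aen by 0.58, and within the second by 1.40, 1.37 and 0.65. The 2 Cdkn1a probes disagreed here as well. The second was at 1.61, 1.71 and 0.88 at 13 months and at 2.70, 2.27, 2.08 and 2.90 at 4 months, with no overlap and a log2 fold change of -1.09 (SE 0.44, limma adjusted p = 0.0784). With the probes averaged, the Cdkn1a difference was -0.066, so its direction with age depends on the probe. Skeletal muscle markers were lower on the 13 month controls, at -3.94 to -2.73 against -1.09 to 0.38 on the 4 month controls, and thyrocyte markers were higher, at 0.75 to 0.98 against -1.32 to 0.56. Other marker lists moved as well, among them squamous epithelium (11 genes), at a median log2 fold change of -6.22, and C cells (10 genes), at 2.86. On all 7 arrays at least 12 of the 13 muscle markers and 13 of the 14 thyrocyte markers were well above background. The part of these marker lists in the age differences was not tested.

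At the intermediate ages, none of the 10 genes was called at 7 months (0.00395% of all probes) or at 10 months (0.0119%), both against 4 months, and 1 and none passed an unadjusted p below 0.05, where 7.62% and 3.64% of all probes did. The median log2 fold change of the list was 0.29 at 7 months and 0.06 at 10 months, against 0.10 and -0.02 over all probes. Ccng1 was at 0.80, 3.64 and 3.05 at 7 months, with a log2 fold change of 2.04 (SE 0.97, limma adjusted p = 0.622) and of 1.47 without the array that lacked thyroid markers, where Gdf15 went from -1.78 to 0.33 and the median of the list to 0.36. At 10 months no gene had groups that did not overlap, against 3.11% of all probes, and Cdkn1a differed by -0.25 (SE 0.32). Its second probe differed by -1.13 (SE 0.41, limma adjusted p = 0.902) at 10 months and by -0.43 (SE 0.44, limma adjusted p = 0.979) at 7 months.

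**Figure D4:**
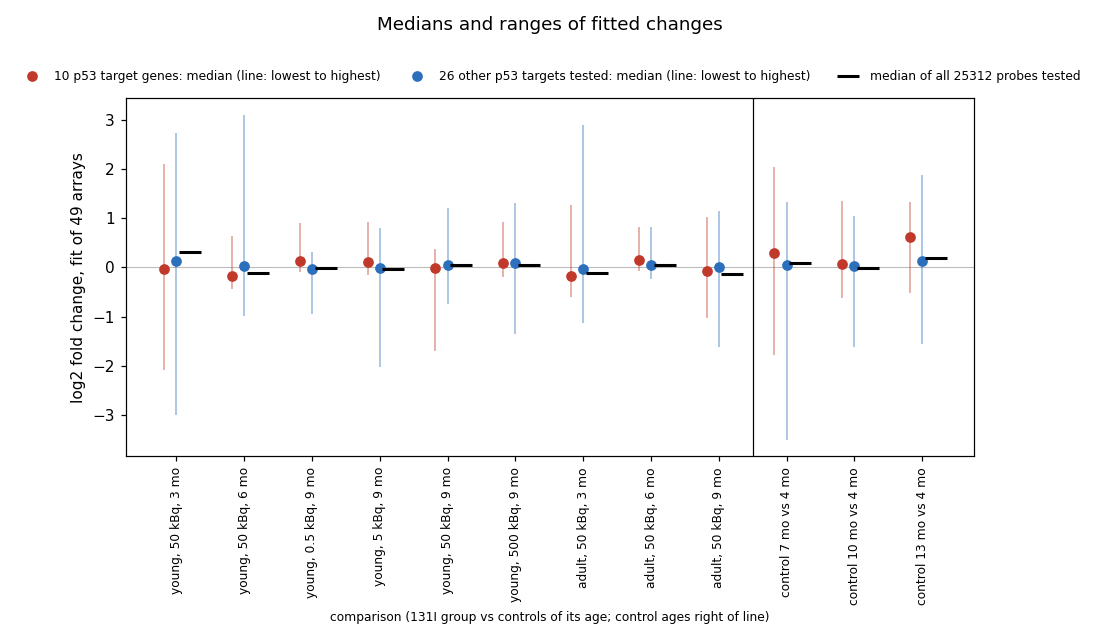
Median (points) and range (lines) of the fitted log2 fold changes (y axis, fit of 49 arrays) of the 10 p53 target genes and of 26 other p53 targets in each comparison (x axis), with bars at the median of all probes tested. The 10 genes are farthest from the bar in the controls of 13 months, at 0.62 against 0.19.

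The difference between the young and the adult response to 50 kBq was tested as an interaction at each time. None of the 10 genes was called at 3 months (0% of all probes), at 6 months (0%) or at 9 months (0%), and 3, 0 and 1 passed an unadjusted p below 0.05, where 29.6%, 3.92% and 13.3% of all probes did. At 3 months Cdkn1a had the smallest p of the list, with a difference of 1.82 (SE 0.47, limma adjusted p = 0.0583), Gdf15 differed by -3.36 (SE 1.36, limma adjusted p = 0.104) and Aen by 0.63 (SE 0.28, limma adjusted p = 0.136). Without the 3 arrays that stand apart, these were 0.83, -1.02 and -0.061. At 6 months no gene had an unadjusted p below 0.05, and 8 of the 10 differences were below 0, the largest in size being that of Cdkn1a at -0.80 (SE 0.47). With 46 arrays in the fit Gdf15 was the largest in size, at -2.08 (SE 1.04), and Cdkn1a was at -0.76. At 9 months Cdkn1a differed by 1.30 (SE 0.47, limma adjusted p = 0.247), from a young effect of 0.38 and an adult effect of -0.92. In the fit of 46 arrays the limma adjusted p was 0.0121, still above 0.01. These Cdkn1a differences are those of its first probe. With all arrays, second-probe means were below controls at 3 months, at 2.01 against 2.49 (young) and 1.55 against 2.06 (adult). At 9 months both were above controls, at 1.76 against 1.35 and 1.85 against 1.40. Differences like 1.82 and 1.30 were thus not seen on the second probe. At 6 months the second probe went with the first, at 1.84 against 2.06 and 2.08 against 1.35.

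Over the 13 groups, Cdkn1a group means ranged from 1.90 in young rats given 5 kBq to 3.38 in young rats 3 months after 50 kBq, where the 2 arrays that stand apart lie, with 3.11 in 13 month controls and 2.61 in 7 month controls next. The other 9 groups lay between 1.91 and 2.29, with SDs of 0.12 to 0.35, so that neighbours among them did not differ beyond their spread. For Mdm2, 11 of 13 group means lay between -0.05 and 0.23. Bax means lay between -1.77 and -1.48 in 12 groups, with SDs of 0.04 to 0.31, and Aen means between 1.10 and 1.70 in all 13.

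Gdf15, Ccng1 and Bbc3 had the widest ranges of group means and the largest median SDs within groups of the 10 genes. Gdf15 ranged over single arrays from -7.38, on the 7 month control that lacked thyroid markers, to 0.75, and its median SD within groups was 0.90. Ccng1 ranged from -1.21 to 4.01, with a median SD within groups of 1.30. In some groups its arrays split. At 9 months in young rats, 50 kBq gave -0.66 and -0.63 beside 2.75 and 3.36, 500 kBq gave -0.01 and 0.51 beside 2.97 and 4.01, and the 10 month controls gave -0.33 beside 2.38 to 2.57. The 4 adult arrays 3 months after 50 kBq, by contrast, lay between 2.50 and 2.72. Bbc3 had a median SD of 0.53 and means from -0.92 in young rats 3 months after 50 kBq to 0.92 in the 13 month controls. Sesn2 means lay between -3.85 in 4 month controls and -2.99 in adult rats 9 months after 50 kBq, and Tp53inp1 means between -2.83 and -2.35.

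Among arrays of one group, the p53 target genes did not vary as 1 block. After group means were subtracted on 46 arrays, 48 relations between the genes and their probes were tested by permuting values within groups, and 11 passed an adjusted p of 0.05 for both Pearson's r and Spearman's rho, 8 positive and 3 negative. Bax and Gdf15 had the highest r at 0.734 (rho 0.740, permutation adjusted p = 0.00048 and 0.00032 over the 48 relations). The r was 0.682 without the 2 arrays of the most extreme Bax. Phlda3 and Tp53inp1 varied together at r = 0.701 (rho 0.667, permutation adjusted p = 0.00492 and 0.0024), or 0.605 without the 2 most extreme arrays, and at 0.760, 0.875 and 0.116 within the 3 scan dates, so that little of it was seen in the last. All negative relations involved Mdm2, with Bbc3 at r = -0.716 (rho -0.740, permutation adjusted p = 0.00048 and 0.00024), with Bax at -0.530 (rho -0.514, permutation adjusted p = 0.00732 and 0.0104) and with Gdf15 at -0.499 (rho -0.531, permutation adjusted p = 0.0140 and 0.00789). Within the 3 scan dates, of 23, 13 and 10 of these arrays, Mdm2 and Bbc3 had r of -0.605, -0.794 and -0.875, and Bax and Gdf15 of 0.670, 0.879 and 0.380. The 2 Cdkn1a probes correlated at r = 0.437 (rho 0.493, permutation adjusted p = 0.00732 and 0.00583). The second probes of Mdm2 and Aen were tested only against the first probe of their gene. All relations of Mdm2 with other genes and with marker lists therefore rest on its first probe. Some of these relations hold only without the 3 arrays: over all 49, Bax and Gdf15 had r = 0.167, and Mdm2 and Bax 0.424.

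Tissue markers varied with the same genes. Over 209 relations between 11 member probes and 19 other gene lists, 29 passed, 15 positive and 14 negative. Follicular thyrocyte markers varied with Bbc3 at r = 0.758 (rho 0.702, permutation adjusted p = 0.00139 and 0.000836 over the 209 relations) and with Bax at r = 0.638 (rho 0.634, permutation adjusted p = 0.00279 and 0.00355). They ran against Mdm2 at r = -0.566 (rho -0.622, permutation adjusted p = 0.0156 and 0.00579) and against the second Cdkn1a probe at r = -0.605 (rho -0.608, permutation adjusted p = 0.00261 and 0.00551). Without the 2 most extreme arrays of the markers, r was 0.679 for Bbc3, 0.616 for Bax and -0.524 for Mdm2. Over all 49 arrays r was 0.749 for Bbc3, -0.604 for Mdm2 and -0.0405 for Bax, whose relation with these markers was thus seen only without the 3 arrays. Within scan dates, r for Bbc3 was 0.728, 0.949 and 0.383, for Bax 0.764, 0.675 and 0.328, and for Mdm2 -0.548, -0.757 and -0.115, so the relation with Mdm2 was near 0 within the last of them. Skeletal muscle markers had the opposite signs, with Mdm2 at r = 0.593 (rho 0.693, permutation adjusted p = 0.00179 and 0.00244) and with Bax at r = -0.524 (rho -0.591, permutation adjusted p = 0.0213 and 0.0148).

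**Figure D5:**
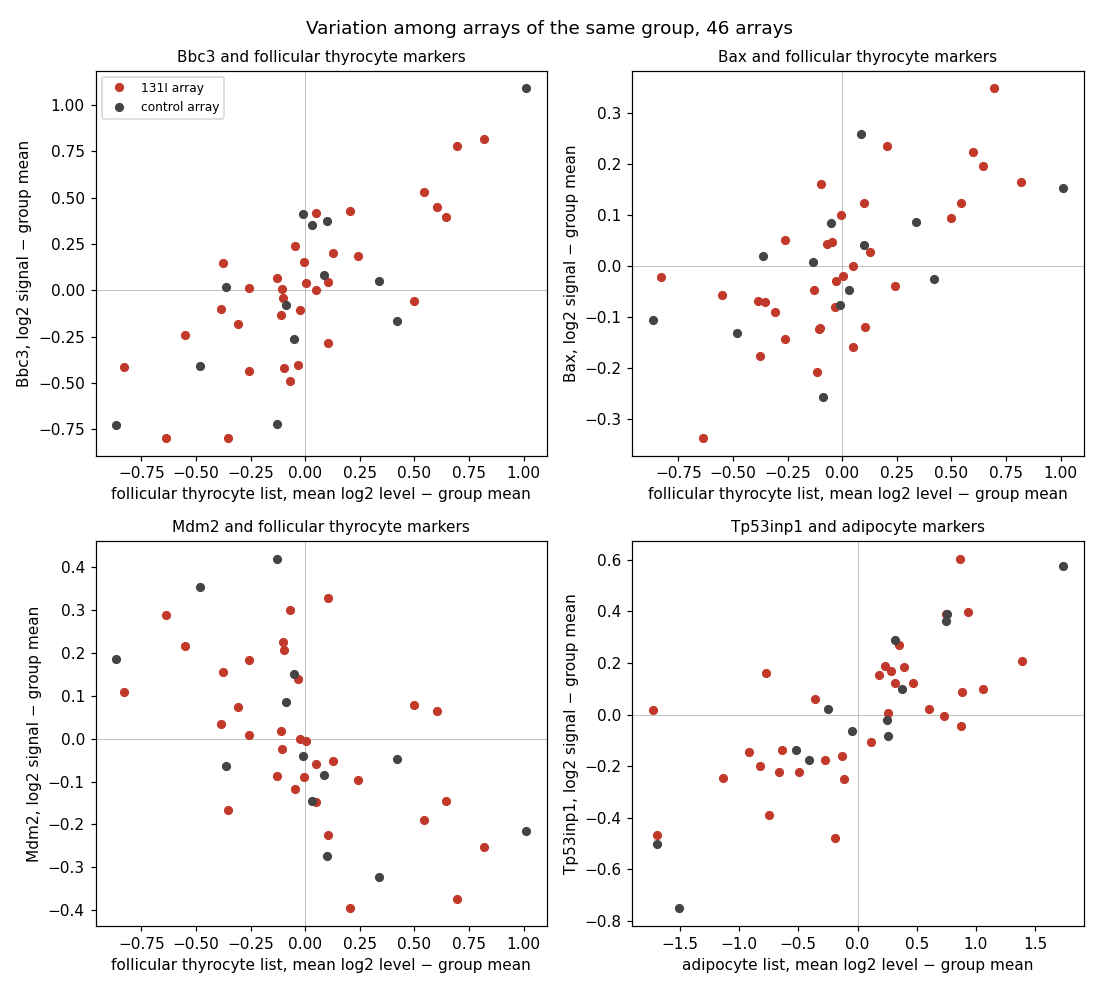
Log2 signal of Bbc3, Bax, Mdm2 and Tp53inp1 (y axes) against the mean log2 level of follicular thyrocyte or adipocyte markers (x axes), each minus its group mean, on 46 arrays (points). Bbc3 and Bax rise with thyrocyte markers (r = 0.758 and 0.638), Mdm2 falls (r = -0.566), and Tp53inp1 rises with adipocyte markers (r = 0.760).

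Adipocyte markers followed Tp53inp1 at r = 0.760 (rho 0.755, permutation adjusted p = 0.000697 for both) and Phlda3 at r = 0.706 (rho 0.740, permutation adjusted p = 0.00125 and 0.000836). Within scan dates, r for Tp53inp1 was 0.773, 0.807 and 0.738, and for Phlda3 0.722, 0.810 and 0.602. Clock output genes of the phase of Dbp ran against Bbc3 at r = -0.710 (rho -0.709, permutation adjusted p = 0.000697 for both) and against Bax at r = -0.582 (rho -0.525, permutation adjusted p = 0.0156 and 0.0231). Within scan dates, these were -0.781, -0.811 and -0.333 for Bbc3 and -0.747, -0.760 and -0.035 for Bax. None of the relations with these lists passed for Cdkn1a's first probe.

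The genes with the pattern most like Cdkn1a over the 49 arrays, after subtracting group means, were Hes7 (r = 0.951), Ly6g5c (0.940), Tmem114 (0.926), Clrn2 (0.923) and Rps24 (0.922). Over 46 arrays Hes7 was at 0.945 and the other four at or below 0.869. For the mean of the 10 genes, each scaled to an SD of 1, the closest over 49 arrays were Reep3 (r = 0.748), Tnfaip8 (0.738), Atl3 (0.733), Hsd17b11 (0.708) and Plbd2 (0.700). Over 46 arrays they were at 0.744, 0.697, 0.706, 0.654 and 0.662 and ranked 5, 30, 21, 73 and 64. None of these genes is on the lists of p53 targets, and the values are descriptions over arrays that share a platform.

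With all 49 arrays, other p53 targets were not called after 131I either. Of 36 listed, 26 were tested, and none was called by limma in any of the 9 comparisons with controls, with median log2 fold changes between -0.04 and 0.14. At an unadjusted p below 0.05, 8 were higher and 6 lower in young rats 3 months after 50 kBq, and 4 were higher and 4 lower in adult rats after 9 months. The shares of all probes that passed in these 2 comparisons were 37.9% and 21.9%, and in the fit of 46 arrays 10.2% and 34.8%. In young rats after 6 months 3 were higher and 2 lower, where 6.54% of all probes passed. In adult rats after 3 months 1 was higher and 3 were lower, where 4.73% passed. At most 2 passed in either direction in the remaining comparisons, where 0.794% to 1.81% of all probes did. In young rats 3 months after 50 kBq, Tp53i11 was at 2.74 (SE 0.90, limma adjusted p = 0.0357) and Perp, a desmosomal protein of p53-dependent apoptosis, at -3.00 (SE 1.12, limma adjusted p = 0.0544). Without the 3 arrays they were 0.17 and -2.28. In the same comparison the 11 squamous epithelium markers tested had a median log2 fold change of -4.63, and of -6.13 without the 3 arrays. Their part in the Perp difference was not tested. Plk3, a stress-activated polo-like kinase, was at -0.94, -2.02, -0.74 and -1.35 in the young groups at 0.5, 5, 50 and 500 kBq after 9 months, with a limma adjusted p of 1.00 in each. Those 4 values share the 10 month controls. In adult rats after 9 months, Plk2 was at -1.61 (SE 0.46, limma adjusted p = 0.0386) and Apaf1, the scaffold of the apoptosome, at -1.19 (SE 0.31, limma adjusted p = 0.0255). With 46 arrays in the fit, 5 of the 26 were called in adult rats after 9 months, 2 higher and 3 lower, where 8.95% of all probes were called, and none in the other 8.

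With age, 3 of the 26 were called between 4 and 13 months, where 5.14% of all probes were. Ephx1, an epoxide hydrolase, rose by 1.88 (SE 0.40, limma adjusted p = 0.00283) and Apaf1 by 1.38 (SE 0.31, limma adjusted p = 0.00371), while Triap1, an inhibitor of apoptosis induced by p53, fell by 0.93 (SE 0.23, limma adjusted p = 0.00758). In the fit of 46 arrays, 7 of the 26 were called, 5 higher and 2 lower, where 21.9% of all probes were. The median of the 26 was 0.12, below that of all probes at 0.19.

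Among 16 targets of the stress factor Atf4, 2 were called in adult rats 9 months after 50 kBq, where 0.514% of all probes were. Ddit3 fell by 1.44 and Mthfd2 fell by 1.97 (SE 0.28 and 0.42, limma adjusted p = 0.00718 and 0.00929). Mthfd2 rose by 1.79 (SE 0.42, limma adjusted p = 0.00525) in the 13 month controls over the 4 month controls. It was the 1 target called there, where 5.14% of all probes were. In the fit of 46 arrays 4 targets were called higher and 1 lower with age, where 21.9% of all probes were called. Chac1 was then at -1.67 (limma adjusted p = 0.00559), opposite in sign to Mthfd2. The adult comparison shares those 13 month controls, so the opposite signs of Mthfd2 in the 2 comparisons are not independent.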

How the data were processed

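Thyroid RNA of 49 rats was measured on one-colour Agilent arrays, which the study names as Sureprint G3 Rat GE 8x60K. Per the file headers, Agilent Feature Extraction 10.7.3.1 made the values, and the authors deposited one file per array, with the background-subtracted intensity of each spot, not scaled between arrays, and with its median signal and background as intensity. The same files hold per-spot marks of 0 or 1, which are in no physical unit (other), for signal well above background, saturation and outliers. The authors also deposited a table of their own fold changes, which was not used. The submitters' processing notes name Partek, and the study's methods name other software for its comparisons.

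Control spots and outlier spots were left out, spots of a probe were averaged on the log2 scale after subtracting the 75th percentile of its array. Of 30367 probes, 17998 were matched to a symbol through RefSeq accessions, and the probe of highest mean signal stood for a gene. Probes well above background on at least 3 arrays, 25312 in all, entered one model in limma 3.58.1 (R 4.3.3), with 13 group means over 49 arrays, 2.22 prior degrees of freedom and Benjamini-Hochberg adjustment over all probes. A gene was called at an adjusted p below 0.01 and a change over 1.5-fold. The fit was tested on simulated data. Named differences had an unadjusted p below 0.05 or groups that did not overlap, 25 in all, and Cdkn1a was given in every comparison. Other lists are given by the genes called or, where none was, those of largest change. Exact two-sided permutation tests have a smallest p of 0.0286. Relations over arrays used 46 arrays, group-centred, with 100000 permutations of values within groups, so that 1e-05 is their smallest p, and ran in Python (scipy 1.17.1, numpy 2.4.6, pandas 2.3.3; plots in matplotlib 3.10.9).

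The members and the gene lists were chosen with earlier results of these data known. Some genes of the lists are not reported here. Alternatives were quantile normalization, normexp with an offset of 50 on median signals, other filters, a block for the slide, the scan date or the replicate number, array weights, probes averaged, another threshold, groups compared alone, each array left out in turn, and fits of 48 and 46 arrays.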

Additional observations from a re-analysis of the deposited data

Results flagged for a closer look

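In 7 of 100 gene and group pairs of 4 arrays, 1 array lay apart from the other 3 beyond Dixon's critical value, where chance gives about 1 in 20. Cdkn1a was at 1.83 on the 4 month control replicate 1, below the others at 2.25 to 2.28. Mdm2 was at 0.40 on replicate 4 of adult rats 6 months after 50 kBq, above -0.02 to 0.01, and at 0.27 on the 10 month control replicate 3, above 0.05 to 0.08. Bax was at -3.53 on replicate 2 of young rats 3 months after 50 kBq, the array of low signal, below -1.95 to -1.71. Ccng1 was at -0.33 on the 10 month control replicate 2, below 2.38 to 2.57. Gdf15 was at 0.60 on the 4 month control replicate 3, above -2.20 to -1.78. Aen was at 1.20 on replicate 1 of adult rats 9 months after 50 kBq, below 1.32 to 1.33. Groups of 3 arrays were not examined in this way.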

How the results depend on the processing

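With all 49 arrays no p53 target gene was called, and other settings added calls or left the count at 0. In the fit of 46 arrays, 1 gene was called in adult rats 9 months after 50 kBq, where 8.95% of all probes were. In that fit 3 were called between 4 and 13 months of age, where 21.9% of all probes were. With 48 arrays, 2 genes were called for age, where 4015 probes were called in all. Array weights called 1 gene in adult rats after 3 months, 3 after 9 months, 5 for age and 3 in the interaction at 9 months. In adult rats after 9 months, for age and in the interaction, Mdm2 was called on its first probe with the opposite sign to the other genes called. In adult rats after 9 months Mdm2 was at 0.778, with Cdkn1a at -1.338 and Bbc3 at -1.045. The second Mdm2 probe went against the first in adult rats after 9 months and for age. Its unweighted means were -2.84 in these adult rats, -2.74 in 13 month controls and -2.93 in 4 month controls. An adjusted p below 0.05 with no fold limit gave 3 for age and 1 in young rats 3 months after 50 kBq. Scan date as a block and slide as a block each gave 1 for age, Bbc3 and Aen respectively. Leaving out 1 array gave 0 to 1 for age, 0 to 1 in the interaction at 3 months and 0 to 2 in young rats after 3 months. The calls for age were Bbc3 without the 4 month control replicate 3 and Cdkn1a without the 13 month control replicate 3. In young rats after 3 months they were Cdkn1a and Bax without replicate 1, and Cdkn1a and Aen without replicate 4. Without replicate 4, Cdkn1a was also called in the interaction. Shares of all probes called are not given for the fit of 48 arrays, array weights, the other threshold, the blocks or single arrays left out. The counts under those settings therefore have no background share beside them. The median in young rats after 3 months was -0.33 with quantile normalization, against -0.04. Reversed differences were, in young rats after 3 months, Aen at -0.030 and Phlda3 at 0.028 with 46 arrays and Bax at 0.18 with normexp on median signals; in the interaction at 3 months, Aen at -0.061 with 46 arrays and -0.22 with array weights; and for age, Cdkn1a at -0.066 with probes averaged. The fits of 46 and 48 arrays and normexp on median signals were chosen after seeing the data. Normexp on mean signals was not run. The causes of these changes were not tested. The labels' replicate numbers do not pair the samples: correlations of same-numbered arrays ran from -0.518 to 0.491, and were all above 0.1 in 1 of 12 comparisons. With the replicate block no call changed, and the median in adult rats 3 months after 50 kBq was -0.19, against -0.18. The number of arrays per group limits the precision.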
